A study of Rattus norvegicus with 7 samples.

Results

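Pard3 and 8 other genes of cell polarity were followed in whole brain of rats bred for high or low alcohol drinking. The listed genes are Pard3, Pard6a, Prkci, Prkcz, Cdc42, Rac1, Dlg1, Llgl1 and Mark2. Members were the transcript probes whose accession is a RefSeq transcript of one of these genes, and 8 of 33849 transcript probes met this rule, covering 7 of the 9 genes. Mark2 had 2 probes, and Pard3, Pard6a, Prkcz, Cdc42, Rac1 and Dlg1 had 1 each. Prkci and Llgl1 had no probe under the rule and are not analysed here. All 8 probes were above background on all 7 arrays, so every one of them was tested.

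RNA came from the whole brain of adult male Wistar rats of an alcohol-preferring line (P) and a non-preferring line (NP). Both lines were made by selective breeding, no rat had been given alcohol, and all were housed in pairs. There were 4 rats of the P line, numbered 1 to 4, and 3 of the NP line, numbered 2 to 4, with 1 rat per 1-colour array and no pooling. Selected lines differ by all that selection and drift have fixed in them, and the labels give no generation or family for a rat. The file headers carry 3 dates without saying which step they mark: NP 2, NP 3, P 1 and P 2 share date 1, NP 4 has date 2, and P 3 and P 4 have date 3. Only date 1 therefore holds both lines. A project line in the headers also differs between date 1 and the later dates. The number of arrays limits the precision.

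Cell polarity proteins give a cell different ends. The scaffold Pard3 binds Pard6 and an atypical protein kinase C (Prkcz or Prkci), and the small GTPase Cdc42 switches this complex on. Dlg1 and Llgl1, of the Scribble group, and the kinase Mark2 work against it from the opposite side of the cell. In neurons the same proteins help decide which neurite becomes the axon and take part in dendritic spine formation, in ependymal and endothelial cells they help place junctions, and Rac1, activated near Pard3, shapes the actin skeleton.

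Between 77.9% and 85.9% of transcript probes lay above background on an array. Of 30 tested markers of neurons, glia, vessels, choroid plexus and red cells, 26 were above background on all 7 arrays. The neuronal markers Snap25 and Stmn2 were so on 3 arrays each, and Uchl1 and Nefl on all 7. No marker was called between the lines. Within date 1, 1 of 29 was called, where 6.31% of all named genes were called. It was the microglial Aif1, lower in P by -1.23 (adjusted p by limma 0.0141). The other microglial markers went the other way there, by 0.0059 (Cx3cr1) to 0.29 (Itgam), and none of them was called. In whole tissue, fewer cells of a type and less RNA per cell cannot be told apart.

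Pard3 was the member that stood apart between the lines, and it had been chosen for that. Its log2 normalized signal read 6.73 in NP 2, 6.73 in NP 3 and 6.45 in NP 4. In the P rats it read 8.36 in P 1, 8.11 in P 2, 7.40 in P 3 and 7.70 in P 4. All P values lay above all NP values, and P 1 and P 2 lay above P 3 and P 4.

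The P rats averaged 7.89 ± 0.43 (SD, n = 4) against 6.64 ± 0.16 (SD, n = 3) for the NP rats. The P minus NP difference was 1.25 ± 0.21 (SE) on the log2 scale, with a 95% interval of 0.79 to 1.72. Both hold for this background offset, since the NP signals were dim, as given below. Pard3 was included because limma's adjusted p for this difference was 0.043, so the difference is a description here and not a test. It ranked 82 of the 84 probes called by their p. The last probe called, GE14434, differed by -0.71 (adjusted p by limma 0.0492), and the first not called, GE17747, by 0.99 (adjusted p by limma 0.0505). Pard3 thus lay close to the threshold, and when each array was left out in turn, in 6 of 7 fits (all but that without P 3) its adjusted p by limma was above it, up to 0.338 without NP 4. The difference itself stayed between 1.10 and 1.42 in those fits.

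**Figure D1:**
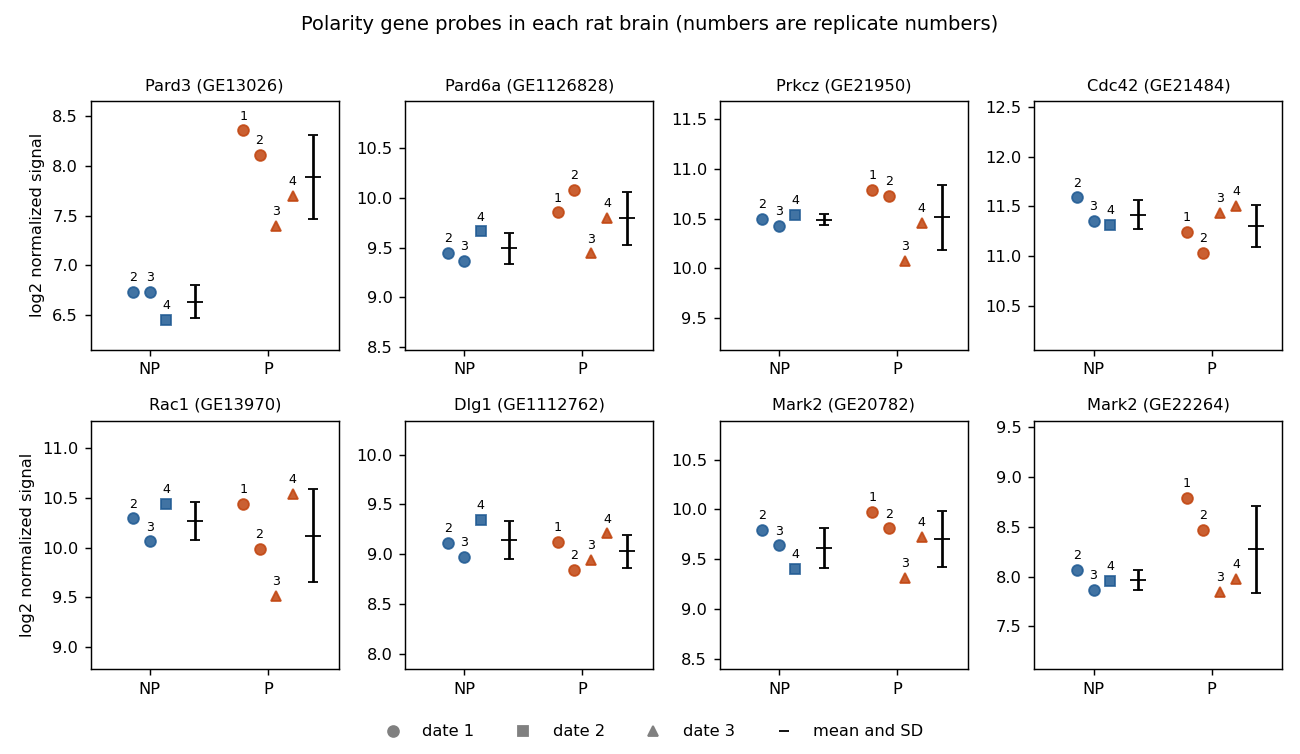
Log2 normalized signal of the 8 probes in each rat, NP in blue and P in orange, with replicate numbers above the points, the date as the marker shape, and the mean with SD beside each group (n = 3 NP, n = 4 P). Every panel spans the same height on the log2 scale but starts at its own level. Only for Pard3 do the P values, 7.40 to 8.36, clear the NP values, 6.45 to 6.73.

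The gap between the lines also stood in the scanner values, but the order of the P rats was another. The mean intensity of the Pard3 spot was 109 in NP 2, 103 in NP 3 and 92.8 in NP 4, over a median local background of 49 to 50. In the P rats it was 308 in P 1, 204 in P 2, 214 in P 3 and 255 in P 4, over a background of 52 to 64. The subtracted intensity was 43.8 to 59.3 in NP and 150 to 254 in P, with no overlap. By spot intensity P 2 was the lowest P rat, below P 3 and P 4. In subtracted intensity P 2 lay below P 4 on every other member probe too, so unscaled values do not order the P rats. After background correction and before scaling between arrays Pard3 read 7.65 in P 2 on the log2 scale, against 7.66 in P 3 and 7.94 in P 4. The scaling set P 2 above both.

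The NP signals of Pard3 were dim. After background correction and before scaling between arrays they read 6.54 to 6.78 on the log2 scale, below the 95th percentile of the negative control spots on each NP array (6.72 to 6.97), although the scanner's flag counted each spot as above background. On the P arrays Pard3 read 7.65 to 8.24, above that percentile on each (6.70 to 7.07). The size of the difference depended on how background was handled. It was 1.92 with plain background subtraction and 1.63 with an offset of 16, against 1.25 with the offset of 50 used here and 1.26 with no correction. In the log2 values deposited by the authors, which are also scaled in another way, it was 1.88. In the authors' values Pard3 lay between 0.31 and 1.48 in P and between -1.29 and -0.82 in NP. The lines did not overlap there either.

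**Figure D2:**
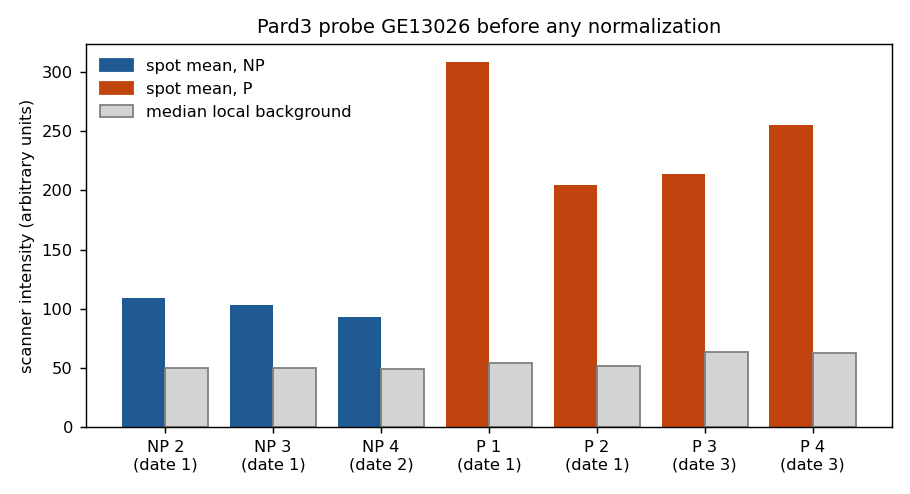
Mean scanner intensity of the Pard3 spot on each array (coloured bars) beside the median of its local background (grey bars), in arbitrary units, before any normalization. The P bars, 204 to 308, stand above the NP bars, 92.8 to 109, while the background stayed between 49 and 64.

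Pard6a, the adaptor that joins Pard3, the kinase and Cdc42, read 9.45, 9.36 and 9.66 in NP 2, NP 3 and NP 4. It read 9.85 in P 1, 10.08 in P 2, 9.44 in P 3 and 9.80 in P 4. P 3 fell among the NP values and the other P rats lay above them. The difference was 0.30 ± 0.16 (SE), with a 95% interval of -0.05 to 0.65 (adjusted p by limma 0.472). It was positive under all 24 alternative settings, which reuse the same arrays and add no support, and it was 0.13 without P 1 and P 2.

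Prkcz, the atypical protein kinase C of the complex, read 10.50, 10.43 and 10.54 in the NP rats in order of their number. It read 10.79 in P 1, 10.73 in P 2, 10.08 in P 3 and 10.46 in P 4. P 1 and P 2 lay above every NP rat and P 3 below every one. The line means, 10.51 ± 0.32 (SD, n = 4) and 10.49 ± 0.05 (SD, n = 3), were nearly equal, with a difference of 0.02 ± 0.17 (SE), a 95% interval of -0.35 to 0.40 and an adjusted p by limma of 0.963. The interval leaves room for a difference of up to 0.40 on the log2 scale, so equal levels are not shown.

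Of the GTPases, Cdc42, which recruits and activates the Pard6 complex, read 11.59, 11.35 and 11.31 in NP 2, NP 3 and NP 4. In P it read 11.24 in P 1, 11.03 in P 2, 11.44 in P 3 and 11.50 in P 4. P 1 and P 2 lay below every NP rat, and P 3 and P 4 within the NP range. The difference was -0.12 ± 0.14 (SE; 95% interval -0.44 to 0.20, adjusted p by limma 0.761).

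Rac1, the GTPase of lamellipodia and spines, read 10.29, 10.06 and 10.44 in the NP rats and 10.44, 9.99, 9.52 and 10.54 in P 1 to P 4. P 3 was the lowest rat and P 4 the highest, so the P rats enclosed the NP rats. The difference was -0.14 ± 0.23 (SE; 95% interval -0.65 to 0.36, adjusted p by limma 0.815). The SD within the lines, 0.38, was the largest of the 8 probes, followed by Pard3 and Mark2 probe GE22264 at 0.35 and 0.34.

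On the opposing side, the scaffold Dlg1 read 9.11, 8.97 and 9.35 in the NP rats and 9.12, 8.84, 8.94 and 9.21 in P 1 to P 4. The lines overlapped throughout, with a difference of -0.11 ± 0.14 (SE; 95% interval -0.42 to 0.19, adjusted p by limma 0.756). Dlg1 had the smallest SD within the lines, 0.18.

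Mark2, the kinase that phosphorylates Pard3 and microtubule-associated proteins, had 2 probes with the same RefSeq accession. Probe GE20782 read 9.79, 9.64 and 9.40 in the NP rats and 9.97, 9.81, 9.31 and 9.72 in P 1 to P 4. Probe GE22264 read 8.07, 7.87 and 7.96 in the NP rats and 8.79, 8.47, 7.85 and 7.98 in P 1 to P 4. On the second probe P 1 and P 2 stood above the other rats, which lay together between 7.85 and 8.07. The differences were 0.09 ± 0.17 (SE; 95% interval -0.28 to 0.47) for GE20782 and 0.31 ± 0.21 (SE; 95% interval -0.16 to 0.77) for GE22264, with adjusted p by limma of 0.838 and 0.565.

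Of the 8 member probes, 1 was called between the lines, Pard3, where 0.290% of all 29003 tested probes were called. That count follows from how Pard3 was chosen and is given only for completeness. The lines did not overlap for 1 of the 8, again Pard3, where 13.3% of all probes with 7 values had no overlap. The 7 other probes had a median difference of 0.02, beside 0.01 over all tested probes.

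**Figure D3:**
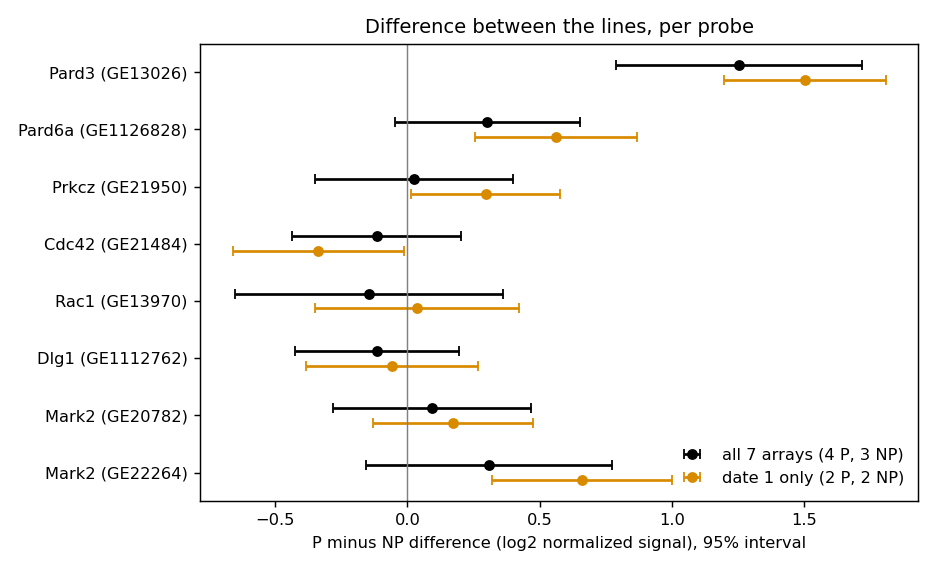
P minus NP difference of each probe on the log2 scale with its 95% interval, over all 7 arrays (black) and over the 4 arrays of date 1 (orange). Pard3 lies at 1.25 and 1.50, and over all arrays the intervals of the 7 other probes include 0. Over date 1 those of Pard6a, Prkcz, Cdc42 and GE22264 do not. The intervals are not adjusted for the number of probes.

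Within date 1, with 2 rats of each line, Pard3 differed by 1.50 ± 0.14 (SE), a description of arrays that took part in choosing it. Pard6a was higher in P by 0.56 ± 0.14 (SE, adjusted p by limma 0.0445) and Mark2 probe GE22264 by 0.66 ± 0.15 (SE, adjusted p by limma 0.0386). Prkcz differed by 0.30 ± 0.13 (SE, adjusted p by limma 0.167) and Cdc42 by -0.34 ± 0.14 (SE, adjusted p by limma 0.171). The other Mark2 probe differed by 0.17 ± 0.13 (SE, adjusted p by limma 0.431), Dlg1 by -0.06 ± 0.14 and Rac1 by 0.04 ± 0.17.

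In all, 3 of the 8 member probes were called within date 1, all higher in P, where 6.40% of all probes were called, 1.86% higher. Pard3, chosen for this difference, is 1 of the 3, and the contrast was in view when the members were listed, so nothing is read from the count. The calls of Pard6a and Mark2 lay close to the threshold. Leaving out 1 of these 4 arrays leaves 1 rat in a line (0.882% to 8.11% of all probes were then called), which is assumed to vary like the other line. Pard6a kept its call without P 1 (adjusted p by limma 0.0326) and lost it without P 2, NP 2 or NP 3 (adjusted p by limma 0.158, 0.0609 and 0.146). Probe GE22264 kept its call without NP 2 (adjusted p by limma 0.0208) and lost it without P 1, P 2 or NP 3 (0.0843, 0.0612 and 0.12). With the date as a block, 2 of the 8 were called, Pard3 and GE22264, where 5.72% of all probes were called. Only date 1 holds both lines, so these differences are the same as within date 1. The block changes only how their variance is estimated. Pard6a missed with the block, at an adjusted p by limma of 0.0622. In the authors' values no member was called within date 1, with adjusted p by limma of 0.179 for both Pard6a and GE22264, while 0.125% of all probes were. The differences there were 0.60 and 0.75, above those given here, and with an intensity trend in the variance 1 member, Pard3, was called, beside 3.73% of all probes. With plain subtraction 0 of the 8 were called within date 1, and with an offset of 16 or median scaling 1 was, where 0.0624%, 0.402% and 3.04% of all probes were called.

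Some of the spread among the P rats followed the date. In the normalized signal P 1 and P 2 lay above P 3 and P 4 for 5 of the 8 probes (Pard3, Pard6a, Prkcz and both of Mark2). For 1, Cdc42, they lay below. Over all probes with 7 values the shares were 32.1% and 27.8%. The order of those 5 appeared only after scaling between arrays. In subtracted intensity P 2 lay below P 4 on each of them, but also on Cdc42 (1547 against 3340), Rac1 and Dlg1. Intensities not scaled between arrays therefore cannot order the rats. P 1 and P 2 exceeded P 3 and P 4 by 0.69 ± 0.16 (SE, adjusted p by limma 0.0227) for Pard3 and by 0.72 ± 0.16 (SE, adjusted p by limma 0.0171) for Mark2 probe GE22264. These 2 of the 8 probes were called in that comparison, where 13.9% of all probes were called. Of 28 tested cell type markers, 3 were called there. The astrocytic Gfap was higher in P 1 and P 2 by 0.71 (adjusted p by limma 0.0138). The microglial Cd68 was higher by 0.60 (adjusted p by limma 0.0293), and Aif1 differed by -0.75 (adjusted p by limma 0.0348). The other astrocytic markers were lower in P 1 and P 2, by -0.12 (Slc1a3) to -0.48 (Aqp4). The other microglial markers ran from -0.01 (Csf1r) to 0.43 (Itgam). The part of the cell types in the Pard3 and Mark2 values was not tested. The comparison uses no NP rat, and it sets pairs of rats side by side whose date and own differences cannot be told apart. With P 1 and P 2 left out, GE22264 differed between the lines by -0.05 (adjusted p by limma 0.875). The Pard3 difference was then 0.91, on arrays that took part in choosing it.

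A wider set of polarity genes was read by role, with 1 probe per gene. Of 96 gene names listed, 42 had a named probe and were tested. None was called between the lines by limma, where 0.176% of all 5677 named genes were called. At an unadjusted p under 0.05 there were 4 (9.52%), where 11.4% of all named genes were. The median difference was 0.01, beside 0.03 over all named genes, with 23 differences above 0 and 19 below, and the largest size was 0.50. The lines did not overlap for 3 of the 37 genes with 7 values (8.11%), beside 13.3% of all such probes. The differences of the 42 are given below as values.

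None of the 4 further gene names listed for the Par and aPKC complex (Pard6b, Pard6g, Pard3b and Pard3l) had a probe under the rule. Of 7 Par kinases and 14-3-3 proteins, which hold phosphorylated Pard3 away from the membrane, 6 differences lay below 0 and 1 above, with a median of -0.11. Ywhah differed by -0.26 ± 0.13 (SE) and Ywhag by -0.13 ± 0.12 (SE). For all 3 measured genes of the Crumbs complex, which binds Pard6 at the apical side, the difference was above 0, with a median of 0.15. Of these 3, 2 were above background on all 7 arrays. The remaining gene was so on 3 arrays, and its difference, 0.10 ± 0.13 (SE), became -0.05 within date 1. Lin7b, a PDZ adaptor of synapses and junctions, differed by 0.27 ± 0.11 (SE, adjusted p by limma 0.411) and the apical membrane protein Crb3 by 0.15 ± 0.12 (SE).

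In the Scribble group, Dlg3, a synaptic scaffold related to Dlg1, differed by -0.10 ± 0.11 (SE) and Lrrc7, a postsynaptic scaffold, by 0.04 ± 0.12 (SE). Of 8 small GTPases and their regulators, 5 differences were above 0 and 3 below. Arhgef7, an exchange factor for Rac1 and Cdc42, differed by 0.30 ± 0.12 (SE, adjusted p by limma 0.395), and Chn1, a GTPase-activating protein for Rac, by -0.50 ± 0.26 (SE, adjusted p by limma 0.476). Among 6 effectors of the GTPases the median was 0.04. Baiap2, which bends the membrane downstream of Cdc42 and Rac1, differed by 0.33 ± 0.14 (SE, adjusted p by limma 0.411), and the kinase Pak3 by -0.16 ± 0.12 (SE).

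Of 3 genes of planar cell polarity, which orients cells within a sheet, Dvl1 differed by 0.12 ± 0.16 (SE) and Fzd3 by -0.01 ± 0.13 (SE). Of 5 junction partners, E-cadherin (Cdh1) differed by 0.28 ± 0.14 (SE) and N-cadherin (Cdh2) by -0.37 ± 0.19 (SE), with adjusted p by limma of 0.455 and 0.466. Of 8 partners in neuronal polarity, the kinase Akt1 differed by 0.43 ± 0.18 (SE, adjusted p by limma 0.419) and Gpsm1, a regulator of spindle orientation, by 0.30 ± 0.19 (SE).

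Within date 1 none of the 42 was called either, where 6.31% of all 5643 named genes were. Between the P rats of date 1 and those of date 3, 4 of 41 were called, where 15.7% of all named genes were. Celsr3, a cadherin of axon guidance, was higher in P 1 and P 2 by 0.96 (adjusted p by limma 0.00568). Ywhaq, a 14-3-3 protein, Chn1 and Efnb1, an ephrin, were lower by -0.91, -0.83 and -0.74.

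**Figure D4:**
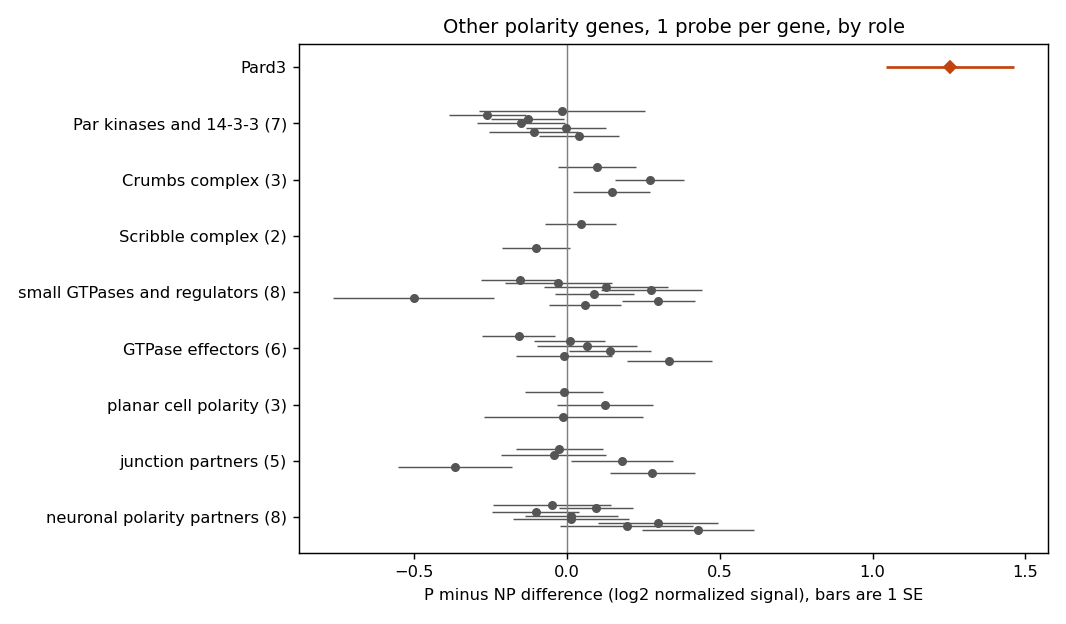
P minus NP difference on the log2 scale, with 1 SE as the bar, for the 42 other polarity genes grouped by role (number of genes in brackets) and, at the top, for Pard3. The 42 lie between -0.50 and 0.43, and Pard3, chosen for its difference, at 1.25.

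By the rule for likeness, the named genes whose signal followed that of Pard3 most closely over the 7 arrays, among 4638 that were above background on all, included Acvrl1 (Pearson r = 0.98), a receptor of the TGF-beta family, Lhfpl5 (0.98), a membrane protein of hair cells, Stard10 (0.97), a lipid transfer protein, and Gtf2h4 (0.97), a subunit of the transcription factor TFIIH. The P minus NP differences of these 4 were 0.34 to 0.46, and none was called. After each line's mean was taken off, Apoe, a lipid carrier made by glia, and Adprh, an ADP-ribosylhydrolase, were among the closest (r of 0.99 each). These values describe 7 arrays that share lines and dates.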

How the data were processed

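Per the file headers, the deposited scanner tables hold, per spot, a mean intensity, the local background's median intensity, a subtracted and a scaled intensity, and a quality flag. RNA was amplified and labelled with biotin, per the labels' protocols. The log2 table the authors deposited tracked the log2 of their scaled intensity (r at least 0.9985 on each array, column medians -0.07 to 0.05); a further adjustment between arrays is unstated. Scanner software and genome build were not given in the sources used here.

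With limma 3.58.1 in R 4.3.3, spots were corrected by normexp (offset 50) and quantile-normalized over transcript probes. Control spots were left out and spots flagged masked, irregular or contaminated set to missing. The 29008 probes above background (neither such a flag nor the near-background flag) on at least 3 arrays were kept, and 29003 could be fitted by lmFit and eBayes without a block. Calls are Benjamini-Hochberg adjusted p under 0.05 over all probes. Differences are P minus NP in log2.

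Probe accessions, versions dropped, were looked up among the RefSeq transcripts of GRCr8, naming 7207 of 33849 probes for 6046 genes. A gene outside the members was represented by its probe of highest mean. The members and lists were chosen with earlier results of these data known. Named were every member, every called gene and the 2 of smallest p of each wider list, markers where a result turned on them, and the genes most like Pard3, of which some are not reported here. Genes called only between P rats were named after their values were seen. The fit was also run on simulated data with independent normal errors and no date differences, which does not test the calls on these arrays. Alternatives covered background, scaling, filter, variance model, blocks, array weights and arrays left out. Those leaving out pairs of P rats, those within date 1 and the authors' values with an intensity trend were chosen after seeing the data. Figures were drawn with matplotlib 3.10.9.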

Additional observations from a re-analysis of the deposited data

How the results depend on the processing

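The Pard3 difference was positive under all 24 alternatives, between 0.91 and 1.92. Limma's adjusted p ran from 0.000178 to 0.338, under 0.05 in 13. Pard3 was chosen for its difference on these same arrays, so these values describe it and do not test it. The alternatives also overlap, and the date block and date 1 alone gave the same difference, 1.50. Pard3 missed the threshold at 1.92 with plain subtraction, 1.21 with median scaling and 1.88 in the authors' log2 table. It also missed at 1.84 in their scaled intensities and 1.25 with only probes above background on all arrays, where fewer probes were tested. With 1 array left out the difference was 1.10 to 1.42. The number of called member probes was 0 in each of those 5 settings, 0 to 1 with 1 array left out, 2 with the date as a block or without P 3 and P 4, and 3 within date 1, where other processing gave 0 to 3. Over all probes, 84 calls became 51 in the authors' table, 48 in their scaled intensities, 49 with only probes above background on all arrays, 154 with array weights, 1655 with the date block, 1847 within date 1, 189 without P 1 and P 2, 3310 without P 3 and P 4, and 51 to 121 with 1 array left out. Of the wider genes 2 were called without P 3 and P 4, Chn1 (-0.78) and Baiap2 (0.46). The cause of these moves was not tested.

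Small differences changed sign. Prkcz was -0.22 without P 1 and P 2 and -0.067 to 0.17 with 1 array left out. Cdc42 was 0.052 and Mark2 -0.093 (GE20782) and -0.051 (GE22264) without P 1 and P 2. Rac1 was 0.036 with the date block or within date 1, 0.017 with array weights and -0.28 to 0.058 with 1 array left out, and GE20782 -0.012 to 0.22. With the replicate number as a block Prkcz was -0.067, Pard3 was 1.10 and 102 probes were called. Same-numbered rats of the lines correlated at 0.02 to 0.10 in their deviations, and not every rat correlated best with its own number. With so few same-numbered rats, and with the dates mixed in, this cannot decide whether the numbers pair the rats.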

Other observations

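In the order of the GRCr8 annotation, the tested genes nearest to Pard3 were Rbm34, Tomm20, Kcnk1, Sipa1l2 and Disc1 on one side and Nrp1 and Itgb1 on the other, after which the chromosome held no further named and tested gene. These genes were chosen by position after the Pard3 values were seen. Their P minus NP differences lay between -0.19 (Itgb1) and 0.26 (Sipa1l2), and limma called none of them, with adjusted p of 0.446 to 0.97. Within date 1 they lay between -0.31 (Tomm20) and 0.37 (Sipa1l2), and none was called. Nrp1, the neuropilin of axon guidance next to Pard3, differed by -0.18 ± 0.17 (SE).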
